A study of Drosophila melanogaster with 18 samples.

Results

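The regions described here are 3461 ac4C peaks of whole Drosophila melanogaster larvae that were called in both RNAi genotypes and not in the control. Absence from the control list does not mean that control larvae lacked signal there. Each is a peak of the list deposited for larvae labelled NAT10 RNAi that overlapped, by at least 1 base on the same chromosome and strand, a peak of the list for larvae labelled NAT10 and Xrp1 RNAi, and overlapped no peak of the control list. They make up 11.1% of the 31192 peaks of the NAT10 RNAi list, out of 93745 peaks in the 3 lists together, and 24 of them repeat the interval of another row. With overlapping rows on a strand merged, they form 3374 separate sites. They were chosen by the authors' peak calls, which rest on the fold enrichment and p-value of each peak, so these values are given as a description without a test.

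N4-acetylcytidine (ac4C) is a modified base that the acetyltransferase NAT10 writes on ribosomal and transfer RNA, and that has also been mapped on messenger RNA. Xrp1 is a bZIP transcription factor known in the fly for the response to ribosome defects and for cell competition. In ac4C-RIP-seq, fragmented polyadenylated RNA is captured with an antibody to ac4C, and a peak is a stretch where the captured (IP) reads exceed those of the uncaptured input.

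Larvae labelled NAT10 and Xrp1 RNAi carried Dats-GAL4 > UAS-NAT10-RNAi Xrp1-RNAi, those labelled NAT10 RNAi carried Dats-GAL4 > UAS-NAT10-RNAi, and control larvae carried Dats-GAL4/+, with 3 input and 3 IP libraries per genotype, 18 in all. The driver, which all 3 genotypes carry, is da-GAL4 held in check by tub-GAL80ts, active in the whole body once larvae are moved to 30 °C. Larvae labelled NAT10 RNAi were delayed in development, per the labels, and were taken 120 h after that shift, control larvae at 72 h, and the labels give no time for larvae with both constructs, so genotype and harvest time cannot be told apart. Each sample pooled 40 third-instar larvae, and since no label says that replicates came from separate cultures, p-values measure only the spread between these samples.

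The targeted transcripts were checked first in the input. NAT10 (l(1)G0020, FBgn0027330, X:8716713-8720277, BDGP6) read 6.18, 6.04 and 6.02 FPKM (reads scaled by gene length and by the total of the library) with both constructs, 5.22, 5.93 and 5.76 in libraries labelled NAT10 RNAi, and 5.13, 4.97 and 5.46 in control. It was thus not lower in the libraries labelled NAT10 RNAi (log2 fold change 0.10 ± 0.06 SE, limma adjusted p = 0.166), so every direction given below rests on the label and not on a measured loss of this mRNA. Xrp1 averaged 41.7 FPKM with both constructs, 386 in NAT10 RNAi and 211 in control. The l(1)G0020 transcript itself holds 1 of the peaks, in its coding sequence at X:8717325-8717445, with an enrichment of 2.31 in the list for both constructs and 1.74 in the NAT10 RNAi list. Input libraries held 15518179 to 21848490 reads in genes with both constructs, 17076581 to 24272099 in NAT10 RNAi and 17291110 to 19223499 in control. Replicate 1 of both constructs stood apart from its own group, with a chi-square per degree of freedom of 8.15 and 11.7 against the other replicates, where other pairs lay between 1.41 and 3.95. Markers of fat body, muscle, gut, neurons, hemocytes, imaginal discs and trachea were all at 1 FPKM or more in each genotype.

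Most peaks of the NAT10 RNAi list were shared with control. In that list 18835 peaks overlapped both other lists, 5047 overlapped neither, and 3849 overlapped control only, while 5850 control peaks had no counterpart in either RNAi list. Median peak length was 229 bases for peaks of all 3 lists. It was 121 bases for peaks of the NAT10 RNAi list alone, 119 for both constructs alone and 121 for control alone. Peaks that control shared only with NAT10 RNAi, or only with both constructs, had medians of 151 bases. Peaks in both RNAi lists and not control had the same median, 151 bases (quartiles 91 and 212), so their length did not set them apart. Their enrichment, the authors' fold of IP over input per peak, had a median of 2.11 in the list for both constructs and 1.88 in the NAT10 RNAi list, where peaks of all 3 lists had 2.09. Enrichment reached at least 2 in both lists for 1311 peaks (37.9%) and at least 5 for 209. It was higher in the list for both constructs for 2174 peaks and lower for 1256, with a median log2 ratio of 0.12, which for peaks of all 3 lists was 0.08. The authors' false discovery rate was above 0.05 for 335 of the peaks (9.68%), against 1.61% of peaks of all 3 lists and 25.2% of those in the NAT10 RNAi list alone.

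**Figure D1:**
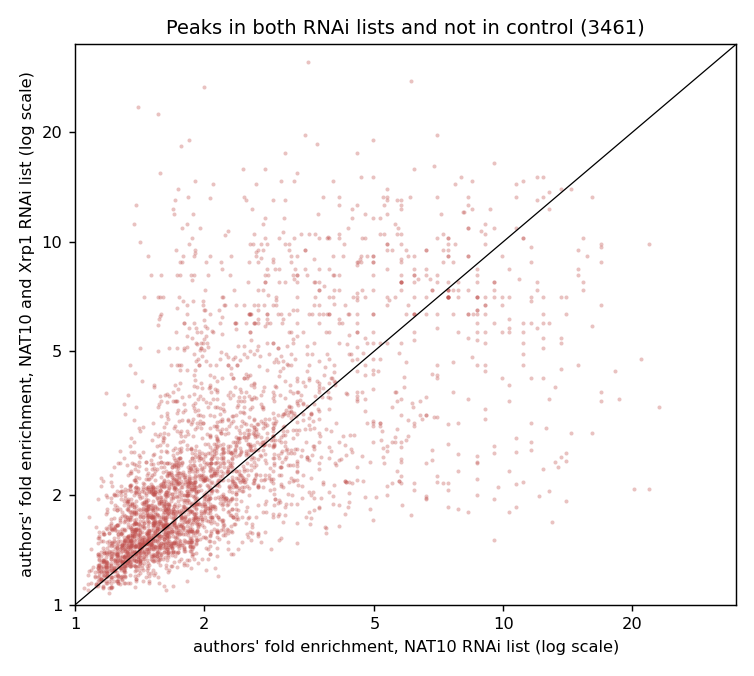
Authors' fold enrichment of the 3461 peaks in the list for NAT10 and Xrp1 RNAi (vertical axis) and in the NAT10 RNAi list (horizontal axis), both on log scales, 1 point per peak, with the line of equal values. Most points lie below an enrichment of 3 in both lists, with medians of 2.11 and 1.88, and few rise above 10 in both.

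The rule set the edge of the group by overlap alone. Just inside it, peaks of CG11377 (enrichment 1.34) and Plc21C (1.48 and 10.7) shared only 2 bases with a peak of the list for both constructs. Just outside it, peaks of spen (1.73), CG4133 (7.01) and CG4896 (2.1) were left out for 2 bases shared with a control peak, the smallest such overlap, which 128 left-out peaks had.

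By the smaller of their 2 enrichment values, the 8 strongest peaks in genes lay in coding sequence in 7 cases. On 3R 2 strong peaks overlapped on opposite strands. The peak at 3R:7251075-7251476 on the minus strand lay in no gene of that strand. It had 14 with both constructs and 14.4 in NAT10 RNAi. Within its interval, on the plus strand, the peak at 3R:7251098-7251277 in the 3′ UTR of CG10050 had 13.3 and 16.1 in the same order. Whether the 2 are 1 signal called on both strands was not tested. The coding-sequence peak of jef at 2R:14742210-14742450 had 14 with both constructs and 13.6 in NAT10 RNAi. CG9083 (2R:24898430-24898580) had 13.7 with both constructs and 12.8 in NAT10 RNAi. Among their hosts, jef averaged 2.06, 2.04 and 1.81 FPKM with both constructs, in NAT10 RNAi and in control, and CG10050 0.396, 0.501 and 0.369 FPKM. The transcription factor gene worniu (wor), known from neuroblasts, carried a peak at 2L:15423888-15423948 with 13.3 with both constructs and 12.4 in NAT10 RNAi, while its own input level was 1.07, 1.09 and 1.11 FPKM with both constructs, 0.5, 0.556 and 0.822 in NAT10 RNAi and 1.65, 1.54 and 1.64 in control. All 3 NAT10 RNAi libraries lay below all 3 control libraries for wor. Among hosts of the signalling list, the insulin receptor gene InR had the peak with the largest smaller value, at 3R:21577379-21577903 in coding sequence, with 10.2 with both constructs and 11.1 in NAT10 RNAi.

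A gene of the deposited table could be assigned to 3268 of the peaks, on the same strand. The other 193 lay in no gene of their strand, and 30 of these had a gene on the opposite strand. The 3268 fell in 2480 host genes, 20.2% of the 12301 genes of the table, of which 2383 code for protein and 82 are noncoding. Most hosts (1893) held a single such peak, 451 held 2, and 14 held at least 5. Hosts were long, with a median span of 4862 bases against 2385 for all genes, and the span grew with the number of peaks, to a median of 11761 bases in genes with 3 or more.

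Most of these peaks lay in RNAs that also had control peaks at other places. Of the hosted peaks 2891 (88.5%) lay in a gene that held a control peak elsewhere, at a median distance of 387 bases from the nearest (quartiles 178 and 890), and 304 (9.30%) lay within 100 bases of it. For peaks of the NAT10 RNAi list alone the shares were 84.6% and 9.28%. The other 377 lay in 304 genes without any control peak. These 304 genes had lower input levels, with medians of 4.18 FPKM with both constructs, 5.01 in NAT10 RNAi and 3.80 in control, against 8.39, 9.73 and 8.31 FPKM in the hosts that had a control peak. They include the genes of the secreted hormone Ilp8 and of the cytokines upd1 and upd3, whose low levels are given further on. The Ilp8 peak lay mostly in an intron or outside annotated exons. Its enrichment was 7.37 with both constructs (FDR 0.0537) and 2.35 in NAT10 RNAi.

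Counted as separate sites, the muscle genes bt and Unc-89 held the most of these peaks. Projectin (bt, a giant kinase of the muscle sarcomere, chromosome 4) held 10, spread over coding sequence, introns and the 3′ UTR, with enrichments from 1.14 to 2.88 with both constructs and from 1.27 to 2.19 in NAT10 RNAi. Obscurin (Unc-89, another sarcomere giant, on 2R) held 8, all in coding sequence, the strongest at 2R:23995632-23996211 with 10.5 with both constructs and 3.37 in NAT10 RNAi. The translational repressor brat held 7, of which 3 were in coding sequence and 4 in the 3′ UTR, none above 2.46. CG43078 and the muscle nesprin gene Msp300 held 6 each. Some rows overlap or repeat each other: CG15465 had 8 rows but 4 separate sites, CG43732 7 rows and 4 sites, and Lasp 6 rows and 3 sites, and all rows of CG15465 and CG43732 were in 3′ UTRs.

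Peaks called in both RNAi lists and not in control had a larger share in 3′ UTRs than control-only peaks. Of 3248 peaks in annotated genes, 727 (22.4%) were in a 3′ UTR, 332 (10.2%) in a 5′ UTR and 1918 (59.1%) in coding sequence. Of the peaks found in control only, 10.5% were in a 3′ UTR and 71.6% in coding sequence, and of the peaks of all 3 lists 18.3% and 67.5%. The 3′ UTR share was 20.5% in the NAT10 RNAi list alone and 17.8% in the list for both constructs alone, and it was 14.1% and 11.4% for peaks that control shared with NAT10 RNAi or with both constructs. The contrast with control-only peaks was present at an enrichment of at least 2 (21.3% against 12.5%) and in peaks of up to 300 bases (25.1% against 11.1%), while the contrast with peaks of all 3 lists was not seen at an enrichment of at least 2, where those had 21.2%. Within the 821 genes that held both kinds, these peaks were nearer the 3′ end than the control-only peaks in 450 (54.8%), with median positions of 0.518 and 0.460 on a scale from 0 at the 5′ end to 1 at the 3′ end. With 1 list per genotype, these shares have no replicate check and no test.

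**Figure D2:**
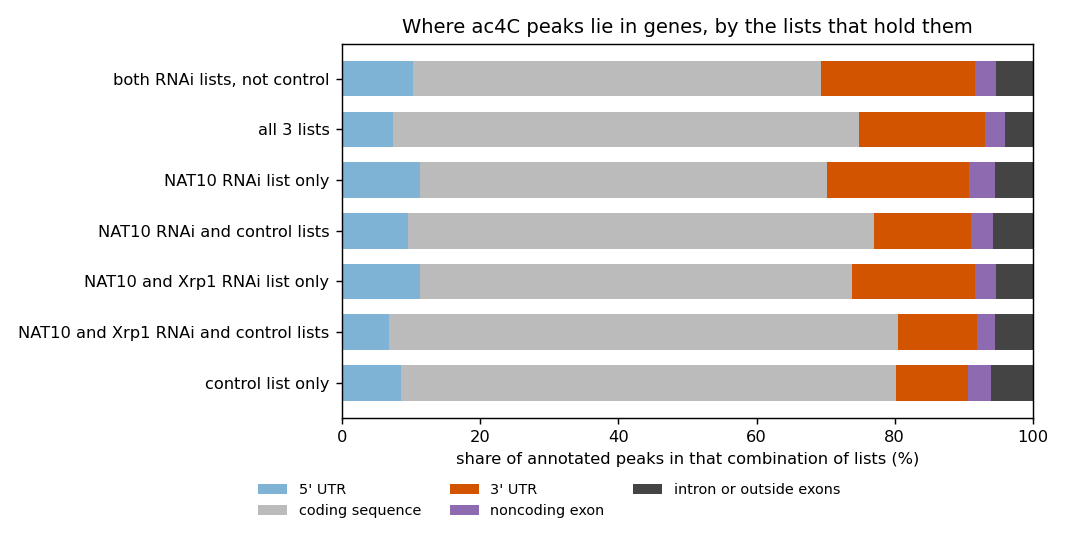
Share of annotated peaks (%) in 5′ UTRs, coding sequence, 3′ UTRs, noncoding exons and introns, for each combination of lists, 1 bar per combination. The orange 3′ UTR segment is 22.4% of the peaks in both RNAi lists and not control, at the top, and 10.5% of the control-only peaks, at the bottom.

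Few of the peaks entered the authors' own tables of differential peaks, which test IP over input between genotypes with read counts per library. The authors' deposited table for NAT10 RNAi against control listed 75 of the 3461 (2.17%), against 1.37% of the NAT10 RNAi list as a whole, with 68 of them (1.96%) higher, against 0.936% of the list, and 7 (0.202%) lower, against 0.436% of the list. At the table's false discovery rate of under 0.05 it held 13 of them (0.376%), against 0.202% of the list, with 10 higher (0.289%, against 0.0930% of the list) and 3 lower (0.0867%, against 0.109%). The authors' deposited table for NAT10 and Xrp1 RNAi against control listed 146 of the 3437 matching rows (4.25%, against 2.02% of that list), with 143 (4.16%) higher, against 1.74% of the list, and 3 (0.0873%) lower, against 0.278%. Of them 20 (0.582%), all higher, had a false discovery rate under 0.05 in the authors' deposited table, where 0.223% of the list was higher, 0.0550% lower and 0.278% either. The rule used this contrast and both tables share their control libraries, so nothing is read from these shares.

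In most peaks listed as higher, the input reads were fewer under RNAi, a direction that listing by the ratio of IP to input fixes in part. In the authors' deposited table for NAT10 RNAi, 62 of the 68 higher peaks had fewer input reads than in control and 51 had more IP reads. In the authors' deposited table for both constructs, 142 of 143 had fewer input reads and 100 more IP reads. The same held over all higher rows of the authors' deposited tables, of which 90.6% of 320 for NAT10 RNAi and 99.2% of 608 for both constructs had fewer input reads. Of all lower rows, 1.87% of 1016 for NAT10 RNAi and 0.989% of 708 for both constructs had fewer. Input reads summed over 3 libraries had a median of 13 in NAT10 RNAi against 23 in control, over all 75 listed peaks. Over all 146 listed for both constructs the medians were 14.5 against 31. Many ratios rest on a handful of input reads: 20 of the 75 and 29 of the 146 had at most 3 in the RNAi libraries together. The extreme values are of that kind, as in CG2065, a predicted dehydrogenase gene, whose peak had 0 input reads in all 3 NAT10 RNAi libraries, against 3, 5 and 3 in control, and only 3, 6 and 10 IP reads, against 8, 8 and 14 in control.

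The best-covered of the listed peaks, singled out after their values were seen, had fewer input reads too. Read counts here are as deposited, not scaled by library depth. Hsc70Cb, a chaperone of the Hsp110 family and nucleotide exchange partner of Hsc70, carried its peak in the 5′ UTR at 3L:14037048-14037257. Its IP reads were 985, 1120 and 1155 in NAT10 RNAi against 1540, 1355 and 1445 in control, and its input reads 326, 444 and 378 against 990, 1070 and 890. IP and input reads were both lower in every NAT10 RNAi library than in any control library, the input by the larger factor, and the authors' deposited table gave a log2 change of 1.15 with a false discovery rate of 9.37e-32. With both constructs it had 1149, 1056 and 1078 IP reads and 314, 330 and 418 input reads, and the authors' deposited table gave a log2 change of 1.07 with a false discovery rate of 8.36e-28. These libraries lay with those of NAT10 RNAi and apart from control.

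**Figure D3:**
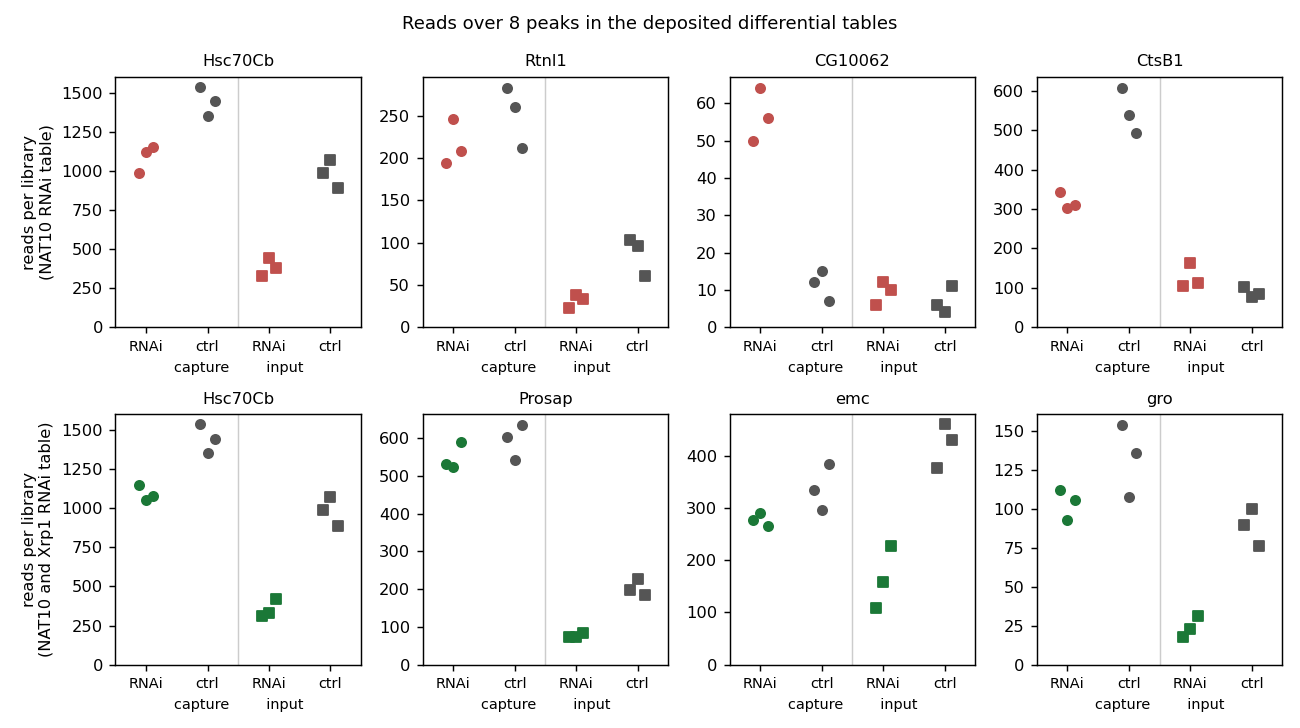
Reads per library over 8 peaks of the authors' differential tables, IP (circles) and input (squares), with RNAi left of control (ctrl) in each panel. The upper row is NAT10 RNAi and the lower row NAT10 and Xrp1 RNAi, with 3 libraries each. For Hsc70Cb in the upper row, input is 326 to 444 reads under NAT10 RNAi and 890 to 1070 in control, while CG10062 is the panel where IP reads are higher under RNAi.

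Other peaks, also chosen after their values were seen, had a like pattern, the first 3 of them in 3′ UTRs. The endoplasmic reticulum shaping gene Rtnl1 (2L:4993405-4993645) had 194, 247 and 208 IP reads in NAT10 RNAi against 283, 261 and 212 in control, and 23, 38 and 33 input reads against 103, 96 and 61. IP reads overlapped between the groups and input reads did not. With both constructs, the postsynaptic scaffold gene Prosap (2R:14061414-14061595) had 531, 524 and 589 IP reads against 604, 543 and 635 in control, and 73, 73 and 85 input reads against 197, 228 and 184. The transcriptional regulator gene emc had 276, 290 and 265 IP reads with both constructs against 335, 295 and 383 in control, and 109, 158 and 226 input reads against 377, 461 and 429. The corepressor gene groucho (gro), whose peak in the list for both constructs (3R:26042864-26043016) lies in an intron or outside annotated exons while the overlapping NAT10 RNAi peak lies in the 5′ UTR, had 112, 93 and 106 IP reads with both constructs against 154, 108 and 136, and 18, 23 and 31 input reads against 90, 100 and 76. Input reads did not overlap between the groups for any of these 4 genes, and the sum of IP reads was lower under RNAi.

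The difference in input at these peaks was larger than that of the whole transcript. Among peaks with at least 30 input reads in each genotype, and listed as higher, the input at the peak, scaled by the reads in genes of each library, differed by a median log2 of -0.70 in NAT10 RNAi (13 peaks) and -0.98 with both constructs (33 peaks), while the FPKM of their host genes differed by medians of -0.01 and -0.10. The peak lay below its host gene in all 13 and all 33, a direction that listing by the ratio of IP to input fixes in part. For Rtnl1 in NAT10 RNAi the values were -1.58 at the peak and -0.01 for the gene, for Hsc70Cb -1.47 and -0.48, and with both constructs -1.37 and -0.15 for Prosap and -1.88 and -0.42 for gro.

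Other peaks, chosen in the same way, had more IP reads under RNAi with input reads that overlapped between the groups. CG10062 (2R:19379561-19379874, coding sequence) had 50, 64 and 56 IP reads in NAT10 RNAi against 12, 15 and 7 in control, and 6, 12 and 10 input reads against 6, 4 and 11. IP counts did not overlap between the groups, and the authors' deposited table gave a log2 change of 2.14 with a false discovery rate of 0.0394. In CG15572 (X:4268760-4269148, 5′ UTR) the IP reads were 127, 163 and 140 in NAT10 RNAi against 82, 86 and 74, and the input reads 17, 41 and 24 against 30, 30 and 23.

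Some peaks absent from the control list had a lower ratio under RNAi. The lysosomal protease gene CtsB1 (X:13781269-13781846), with no control peak anywhere in the gene, had 344, 302 and 310 IP reads in NAT10 RNAi against 608, 538 and 494 in control, and 104, 162 and 112 input reads against 102, 76 and 84. Every control IP library thus lay above every NAT10 RNAi library at a peak that only the RNAi lists call, and the authors' deposited table gave a log2 change of -1.07 with a false discovery rate of 8.02e-07. The proton pump subunit gene Vha100-1 and CG7470 were lower too in the authors' deposited table, by log2 changes of -1.17 and -1.03 (false discovery rates of 9.23e-04 and 0.0156), with more input reads under NAT10 RNAi and IP reads that overlapped between the groups.

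The shares of host genes higher and lower in the input lay within 5 percentage points of those of all genes, and the difference was not tested. Of the 2480 hosts, 2374 passed the filter on low values (1 FPKM or more in at least 3 libraries). In NAT10 RNAi against control, 1123 of them were higher (47.3%) and 509 lower (21.4%) by limma at an adjusted p under 0.05, where the shares over all 11557 genes tested were 47.3% and 18.9%. The median log2 change was 0.14 in hosts and 0.17 in all genes, so the libraries carry a shift between genotypes. When each library was rescaled by its median ratio to the others, 737 hosts were higher (31.1%) and 857 lower (36.1%), against 31.8% and 31.7% of all genes. With both constructs against control, 513 hosts were higher and 513 lower (21.6% each), against 21.5% and 19.2% of all genes, and after rescaling 496 and 532 against 21.3% and 20.6% (41.9% in either direction). With both constructs against NAT10 RNAi, 377 were higher (15.9%) and 1111 lower (46.8%), against 15.2% and 46.1% of all genes, and after rescaling 738 and 636 (31.1% and 26.8%) against 28.3% and 27.5%. In RNA from whole larvae, fewer cells of a type and less RNA per cell cannot be told apart.

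**Figure D4:**
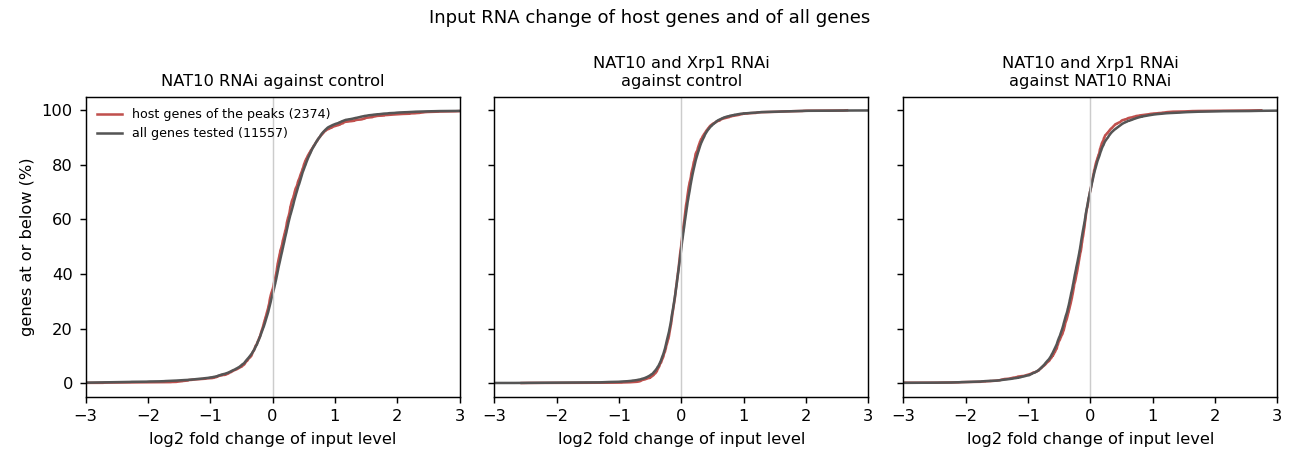
Cumulative share of genes (%) by log2 fold change of input level, for the 2374 host genes tested and all 11557 genes tested, in 3 comparisons. The curves of host genes and of all genes run close together in each panel, with medians of 0.14 and 0.17 in NAT10 RNAi against control.

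Stress-secreted factors were among the hosts that changed most. Ilp8, a relaxin-like hormone that delays metamorphosis when tissue is damaged, read 0.297, 0.204 and 0 FPKM with both constructs, 5.26, 5.17 and 4.72 in NAT10 RNAi, and 0, 0.180 and 0.333 in control. It rose in NAT10 RNAi against control by 2.38 ± 0.12 on the log2(FPKM + 1) scale (SE, adjusted p = 5.46e-08) and was lower with both constructs than in NAT10 RNAi by limma (-2.38 ± 0.12, adjusted p = 9.88e-08). The cytokine gene upd1 averaged 1.05 FPKM with both constructs, 4.36 in NAT10 RNAi and 0.935 in control, and upd3 0.414, 2.34 and 0.330 FPKM. For all 3 genes, each NAT10 RNAi library lay above each library of both other genotypes. Of the Xrp1 partner and stress list 5 of 20 genes held a peak, against 20.2% of all genes. These 5 were all higher in NAT10 RNAi (4 after rescaling), where 47.3% of all genes were (31.8% after rescaling). All 5 were lower with both constructs against NAT10 RNAi, where 46.1% of all genes were. The pro-apoptotic gene hid also fell below control with both constructs (-0.41 ± 0.04, adjusted p = 3.87e-05).

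Of 27 genes of the ecdysone response 12 held a peak, where 20.2% of all genes did, a difference that was not tested or adjusted for gene length, and 11 of the 12 were tested for level. In NAT10 RNAi 8 were lower and 1 higher, against 18.9% and 47.3% of all genes (10 and 0 after rescaling, against 31.7% and 31.8%). With both constructs against NAT10 RNAi 7 were higher, against 15.2% of all genes. The nuclear receptor Hr4 read 18.7, 16.1 and 16.2 FPKM with both constructs, 1.68, 1.81 and 1.79 in NAT10 RNAi and 16.3, 16.6 and 15.8 in control. Its level in NAT10 RNAi fell by 2.64 on the log2 scale (adjusted p = 1.35e-10, limma), and with both constructs it did not differ from control beyond the test's threshold (0.06 ± 0.06, adjusted p = 0.469). Hr4 also held 19 control peaks, and its 1 peak of this group, at X:1993643-1993734, had an enrichment of 2.42 with both constructs and 3.14 in NAT10 RNAi. The early-response factor Broad (br), with 5 peaks, averaged 154 FPKM with both constructs, 72.1 in NAT10 RNAi and 187 in control. Eig71Ee, an ecdysone-induced gene outside that list, read 1351, 1382 and 1389 FPKM with both constructs, 773, 742 and 781 in NAT10 RNAi and 7295, 7600 and 7717 in control. All 9 libraries of Eig71Ee separate by genotype. The salivary gland markers summed to 3639 to 3790 FPKM with both constructs, 3831 to 3963 in NAT10 RNAi and 29099 to 33311 in control (6, 5 and 6 of 6 at 1 FPKM or more). Like Eig71Ee, they were lower than control in both RNAi genotypes. By their sum they lay lower with both constructs than in NAT10 RNAi, where Eig71Ee lay higher. By their median they lay higher with both constructs, at 210 FPKM against 157 in NAT10 RNAi. Their part was not tested.

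Muscle and digestive genes among the hosts were mostly higher than control in both RNAi genotypes. Of 28 muscle and sarcomere genes 12 held peaks, 37 in all, where 20.2% of all genes did, a difference not tested or adjusted for gene length. Of the 12, 10 were higher in NAT10 RNAi and 2 lower, against 47.3% and 18.9% of all genes (9 higher after rescaling, against 31.8%), with a median log2 change of 0.71 against 0.17 for all genes. With both constructs 11 were higher than control and 0 lower, against 21.5% and 19.2% of all genes. After rescaling these were 11 and 1, against 21.3% and 20.6%. Unc-89 read 4.46, 5.24 and 4.89 FPKM with both constructs, 7.29, 7.53 and 7.34 in NAT10 RNAi and 1.51, 1.39 and 1.4 in control, with no overlap between genotypes (log2 change 1.79 ± 0.07 in NAT10 RNAi and 1.27 ± 0.07 with both constructs, adjusted p = 3.66e-09 and 2.19e-07). The Z-disc gene Zasp66 went against its group, averaging 203 FPKM with both constructs, 104 in NAT10 RNAi and 220 in control. The 8 muscle markers, which include the hosts bt and sls, were all at 1 FPKM or more in each genotype. Their sum was 5736 to 5952 FPKM with both constructs, 7537 to 7718 in NAT10 RNAi and 2763 to 2870 in control. Their part was not tested. Of 58 digestive enzyme genes 9 held peaks, against 20.2% of all genes. Of the 9, 8 were higher and none lower in each comparison against control, where 47.3% of all genes were higher in NAT10 RNAi and 21.5% with both constructs. The amylase gene Amy-p read 17.3, 23.9 and 24.1 FPKM with both constructs, 36.2, 37.1 and 34.1 in NAT10 RNAi and 3.25, 1.90 and 2.7 in control. Its 3 peaks had enrichments between 1.78 and 2.35 with both constructs, and its reads may be shared with a near-identical copy. The maltase genes Mal-A3 and Mal-A4 averaged 11.3 and 15.3 FPKM with both constructs, 18.3 and 14.6 in NAT10 RNAi and 1.01 and 1.64 in control. The gut markers, which include Amy-p, summed to 552 to 746 FPKM with both constructs, 717 to 749 in NAT10 RNAi and 421 to 448 in control. All 6 of 6 were at 1 FPKM or more, and their part was not tested.

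**Figure D5:**
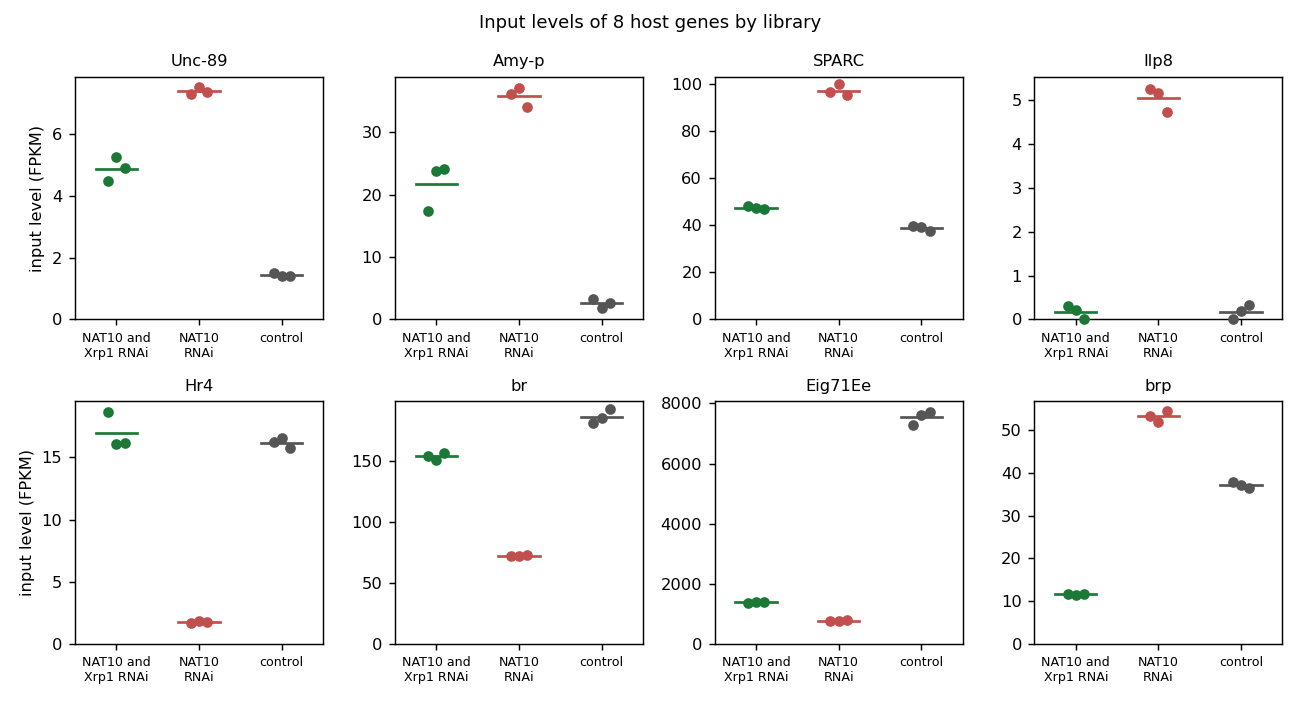
Input level (FPKM) per library for 8 host genes, with NAT10 and Xrp1 RNAi, NAT10 RNAi and control from left to right, points for the 3 libraries and a bar at their mean. Ilp8 stands at 4.72 to 5.26 FPKM in NAT10 RNAi alone, Hr4 at 1.68 to 1.81 there against 15.8 to 16.6 in control, and brp is lowest with both constructs.

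Basement membrane and adhesion genes held peaks in 11 of 18 cases, where 20.2% of all genes did, a difference not tested or adjusted for gene length. Of the 11, 9 were higher in NAT10 RNAi, against 47.3% of all genes (7 after rescaling, against 31.8%). With both constructs 8 were higher than control, against 21.5% of all genes. SPARC, a collagen-binding matrix protein made by hemocytes and fat body, carried a peak at the very start of its transcript (3R:26871935-26871995, enrichment 3.21 with both constructs and 3.59 in NAT10 RNAi) and read 48.1, 47.2 and 46.8 FPKM with both constructs, 96.5, 99.9 and 95.5 in NAT10 RNAi and 39.8, 39.1 and 37.7 in control. The hemocyte markers, which include the matrix genes Ppn and vkg, summed to 78.8 to 86.4 FPKM with both constructs. They summed to 191 to 196 in NAT10 RNAi and 52.8 to 53.8 in control, with 6 of 6 at 1 FPKM or more. They are thus no separate gauge of hemocytes, and their part was not tested. Synaptic and neuronal genes held peaks in 20 of 48, against 20.2% of all genes, also not tested or adjusted for gene length. Of these hosts 9 were higher and 3 lower in NAT10 RNAi, shares near the 47.3% and 18.9% of all genes (5 and 7 after rescaling, against 31.8% and 31.7%). With both constructs against control 1 was higher and 7 lower, against 21.5% and 19.2% of all genes. Bruchpilot (brp), the scaffold of the presynaptic active zone, combined a strong coding-sequence peak (2R:9523854-9523945, 11.2 with both constructs and 9.08 in NAT10 RNAi) with levels of 11.6, 11.4 and 11.7 FPKM with both constructs, 53.2, 52 and 54.5 in NAT10 RNAi and 37.8, 37.1 and 36.4 in control. It was lower with both constructs than in either other genotype (log2 change -1.60 ± 0.03 against control and -2.11 ± 0.03 against NAT10 RNAi, adjusted p = 2.21e-10 and 1.54e-11). The neuron markers, which include brp itself, summed to 83.9 to 85.8 FPKM with both constructs. They summed to 137 to 140 in NAT10 RNAi and 118.1 to 122.7 in control. Their medians were 15.0 FPKM with both constructs, 20.8 in NAT10 RNAi and 21.6 in control, with 6 of 6 at 1 FPKM or more. Because brp is part of the sum, the sum is no separate gauge of neurons, and their part was not tested.

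Genes of the protein-making and protein-degrading machinery held peaks at shares below that of the table, differences that were not tested or adjusted for gene length. Of 91 cytosolic ribosomal protein genes 9 (9.89%) held a peak, as did 4 of 72 mitochondrial ribosomal protein genes (5.56%), 8 of 52 translation factors (15.4%), 7 of 47 proteasome subunits (14.9%) and 10 of 84 oxidative phosphorylation genes (11.9%), all below the 20.2% of the table. Among ribosomal protein peaks, RpS5a had 2.90 with both constructs and 5.57 in NAT10 RNAi. Stubarista (sta, a small-subunit protein) had its strongest peak at X:1482968-1483205 in the 5′ UTR, with 2.48 with both constructs and 8.66 in NAT10 RNAi, and sta had no control peak. Of the 9 ribosomal protein hosts 6 were higher in NAT10 RNAi and none lower, against 47.3% and 18.9% of all genes, but after rescaling 5 were higher and 3 lower. Of 7 proteasome hosts 5 were lower in NAT10 RNAi and 5 with both constructs, before and after rescaling, against 18.9% and 19.2% of all genes (31.7% and 20.6% after rescaling). Rpn2, a subunit of the regulatory particle, averaged 455 FPKM with both constructs, 293 in NAT10 RNAi and 535 in control, and its peaks at 3R:29153673-29154242 and 3R:29154361-29155082 had 3.41 and 3.75 with both constructs and 3.72 and 2.54 in NAT10 RNAi. Prosbeta2R1, a testis-type core subunit, was the exception, higher in NAT10 RNAi at 1.90 FPKM against 1.04 in control. Chaperone genes held 11 peaks in 6 of 38 genes. Hsp60A, the mitochondrial chaperonin, had a long 3′ UTR peak (X:11111408-11112248) with 6.92 with both constructs and 5.4 in NAT10 RNAi and averaged 54.4, 79.1 and 47.5 FPKM with both constructs, in NAT10 RNAi and in control, while the BiP gene Hsc70-3 averaged 1329, 905 and 1473 FPKM.

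Other groups held peaks at shares on both sides of the table's 20.2%. RNA-binding and splicing genes held them in 16 of 43, histone and chromatin genes in 11 of 29, signalling and patterning genes in 13 of 41 and cytochrome P450 genes in 23 of 76, whereas cuticle protein genes had 4 of 66, glutathione and UDP-glycosyl transferases 3 of 49 and noncoding CR genes 78 of 914. Hosts were longer than other genes, as given above, and these shares were not adjusted for length. Of the 20 cytochrome P450 hosts tested 16 were higher in NAT10 RNAi and 1 lower, against 47.3% and 18.9% of all genes (13 higher after rescaling, against 31.8%). Of the 16 RNA-binding hosts 10 were lower with both constructs than in control, against 19.2% of all genes, among them the poly(A)-binding protein gene pAbp, which averaged 876 FPKM with both constructs, 1212 in NAT10 RNAi and 1601 in control and had a peak at its 5′ end with an enrichment of 6.49 with both constructs and 3.23 in NAT10 RNAi. Of 9 larval serum and fat body genes 3 held a peak: Apoltp, apolpp and Lsp1beta, carriers of lipid and storage protein. All 3 were higher than control in NAT10 RNAi, against 47.3% of all genes (31.8% after rescaling). All 3 were also higher than control with both constructs, against 21.5% of all genes (21.3% after rescaling). Apoltp averaged 2.90 FPKM with both constructs, 6.13 in NAT10 RNAi and 2.26 in control. The 6 fat body markers, which include Lsp1beta, summed to 11514 to 12854 FPKM with both constructs. They summed to 8163 to 8400 in NAT10 RNAi and 10737 to 10905 in control, and their part was not tested. Of 36 mucin and peritrophic matrix genes 8 held peaks, with 6 hosts higher in NAT10 RNAi, against 47.3% of all genes, among them the chitinase gene Cht9 at 1.98 FPKM with both constructs, 10.3 in NAT10 RNAi and 1.19 in control. Of 12 glue genes 2 held a peak.

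Among the hosts with the largest changes, CG14850 had 0.110, 0.604 and 0.623 FPKM with both constructs, 248, 248 and 254 in NAT10 RNAi and 0.374, 0.177 and 0.197 in control, and its coding-sequence peak is in the list for both constructs at an enrichment of 5.26 (FDR 0.0891) and in the NAT10 RNAi list at 1.97. CG11300, without a control peak, averaged 25.3 FPKM with both constructs, 157 in NAT10 RNAi and 7.01 in control. In the other direction, Pu, the first enzyme of pteridine synthesis, averaged 196 FPKM with both constructs, 28.2 in NAT10 RNAi and 191 in control, and CG9021 averaged 117, 19.2 and 202 FPKM. Pu and CG9021 were higher with both constructs than in NAT10 RNAi (log2 change 2.74 ± 0.07 and 2.54 ± 0.06, adjusted p = 6.76e-10 and 5e-10).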

How the data were processed

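Inputs and ac4C captures of 3 genotypes were sequenced in 3 replicates each. Per the submitters' processing notes the tools included fastp 0.23.1, STAR 2.7.6a, featureCounts, bedtools 2.30.0 and HOMER 4.9.1, with the build BDGP6. Which of them called the peaks, and whether replicates were pooled, is not given in the sources used here. The authors deposited 1 peak list per genotype with a fold enrichment (ratio of IP to input), a p-value and FDR per peak and a score that repeats the enrichment, coordinates being used as deposited. Differential tables by the authors gave whole-number read counts per library and a log2 change. Input levels were FPKM deposited by the authors for 12301 genes. The 12 per-sample columns of the tables of differential genes were not used.

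Peaks were intersected with Python 3.11 scripts and assigned to genes on their strand by the largest overlap. Gene features came from Ensembl BDGP6.54, which holds 12242 of the table's genes, 90.5% of them at identical coordinates. The model for levels was limma 3.58.1 (trend, robust, two-sided) on log2(FPKM + 1) over all 9 input libraries, with Benjamini-Hochberg adjustment over all genes tested, after a test on simulated data. This fold scale understates the change of low genes. Whole reads were recovered from all FPKM values (100% within 0.1 of a whole read) and tested with edgeR 4.0.16 and DESeq2 1.42.0 as alternatives, which called 7602 and 6824 genes in NAT10 RNAi against control where limma called 7653. Same-numbered replicates did not deviate together (correlations of -0.0683 to 0.0797), so no block was used. Named genes are the 8 strongest peaks, peaks of the authors' tables, genes with the most peaks, the largest input changes and up to 4 hosts of each of 22 gene lists. The peaks and gene lists were chosen with earlier results of these data known.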

Additional observations from a re-analysis of the deposited data

How the results depend on the processing

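Under every alternative way of matching the lists the number of peaks stayed within 1.5 times of 3461, from 2331 (both RNAi lists at a stricter FDR) through 2847 (all 3 lists at it), 3142 (no control peak within 100 bases) and 3423 (either strand) to 3502 (overlap of at least 0.5 of the shorter peak counting as shared). The number of host genes was 2287 when only peaks inside a single gene span were assigned. Counts of hosts called moved with the scale of the libraries. In NAT10 RNAi against control, hosts higher numbered 737 after rescaling and 710 by DESeq2, and hosts lower 857 after rescaling, 884 by edgeR and 835 by DESeq2, against 1123 and 509. With both constructs against NAT10 RNAi, hosts higher numbered 738, 755 and 724 and hosts lower 636, 725 and 599 after rescaling, by edgeR and by DESeq2, against 377 and 1111. These 3 alternatives set each library to a common scale, and the cause of the shift was not tested. Leaving out 1 library at a time gave 1493 to 1707 hosts called in NAT10 RNAi against control, 835 to 1026 with both constructs against control and 1301 to 1463 with both constructs against NAT10 RNAi. With the replicate block, which pairs numbers that the data do not pair, the counts were 1612, 975 and 1466. Of 3807 values of named genes under alternatives, 3656 kept direction and call, 148 lost the call and 3 turned: the SF2 input level, NAT10 RNAi against control, at -0.074 after rescaling, -0.0614 by edgeR and -0.0759 by DESeq2, against 0.12. Peak enrichment has no replicate check here, with 1 list per genotype, and listed peaks with few input reads are limited by that depth.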

Other observations

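The peaks numbered 860 on 3R, 684 on 2R, 661 on 3L, 615 on 2L, 600 on X and 41 on chromosome 4. The plus strand held 55.5% of them, against 57.2% of the list for both constructs, 59.1% of the NAT10 RNAi list and 57.6% of the control list.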
